A study of Mus musculus with 16 samples.

Results

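Lipocalin 2 and 9 classical acute phase proteins of the mouse were followed across 4 groups of sorted liver cells. The members are Lcn2, the serum amyloid A genes Saa1, Saa2, Saa3 and Saa4, haptoglobin (Hp), hemopexin (Hpx), the orosomucoids Orm1 and Orm2, and Serpina3n. They were chosen by name: every array probe other than a control whose gene name in the array files is a member was taken, which gave 12 probes of 10 genes among 41174 probes of 28034 gene names. Cells of c129/S3 mice had been sorted by MIC1-1C3, a surface antigen of bile duct cells abbreviated M, and by the antigen CD133, which Prom1 encodes. The 4 groups were M+133+ cells of untreated liver (n = 4 samples on 5 arrays), M-133- cells of untreated liver (n = 2 on 3 arrays), M+133+ cells after DDC (n = 4) and M-133- cells after DDC (n = 4). DDC, a porphyrin-raising compound that injures the biliary tree and evokes a ductular reaction, was given at 0.1% of the diet by weight for 2 weeks, and the labels name no other treatment and no allele. The negative gate selects no cell type of its own. The labels call the samples biological replicates and do not say how many animals each holds, so p-values measure the spread between these samples.

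Acute phase proteins are plasma proteins whose output from the liver changes within hours of infection or injury. Interleukin 6 acts through STAT3 and the C/EBP factors, and interleukin 1 and tumor necrosis factor act through NF-kappaB, to raise the genes of serum amyloid A, haptoglobin, hemopexin, orosomucoid and Serpina3n, mainly in hepatocytes. Lipocalin 2 binds the iron-carrying siderophores of bacteria. It is stored in neutrophil granules and is made by stressed epithelia and, in liver injury, by hepatocytes.

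Saa1 and Saa2 lie next to each other on chromosome 7, facing apart, and their promoters are near-identical. RefSeq (build GRCm38.p6) gave a start site for 8 of the 10 members. The 250 bases before it are printed for the near-identical pair and for Lcn2, whose values ran differently from those of the other members. Capitals mark matches to TTGCNNAA, a spelling of the C/EBP site. The windows are chr7:46742981-46743230 (minus strand) for Saa1, chr7:46751583-46751832 (plus strand) for Saa2 and chr2:32387740-32387989 (minus strand) for Lcn2.
Saa1 promoter: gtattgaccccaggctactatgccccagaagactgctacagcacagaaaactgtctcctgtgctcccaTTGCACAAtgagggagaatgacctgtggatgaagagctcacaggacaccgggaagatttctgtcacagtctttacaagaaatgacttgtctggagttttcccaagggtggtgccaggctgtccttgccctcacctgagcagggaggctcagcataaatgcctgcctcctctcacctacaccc
Saa2 promoter: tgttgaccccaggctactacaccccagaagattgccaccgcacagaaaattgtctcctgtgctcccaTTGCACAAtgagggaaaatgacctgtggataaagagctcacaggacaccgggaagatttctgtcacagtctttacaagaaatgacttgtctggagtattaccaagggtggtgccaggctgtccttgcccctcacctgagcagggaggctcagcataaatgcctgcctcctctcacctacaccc
Lcn2 promoter: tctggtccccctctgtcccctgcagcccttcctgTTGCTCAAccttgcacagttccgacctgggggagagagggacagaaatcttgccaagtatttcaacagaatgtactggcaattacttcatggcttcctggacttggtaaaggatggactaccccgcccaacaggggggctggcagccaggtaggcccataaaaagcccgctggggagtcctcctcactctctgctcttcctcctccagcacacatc
The Saa1 and Saa2 windows were identical in 238 of 251 aligned columns (94.8%), with 11 mismatches and 2 gap columns. The other 27 pairs of member windows were 43.8% to 53.2% identical when aligned in the same way. TTGCNNAA was present on either strand in 7 of the 8 windows (Lcn2, Saa1, Saa2, Saa3, Saa4, Hpx and Orm2, but not Serpina3n), against 9.56% of all 32851 promoters of the same length. The near-identical Saa1 and Saa2 windows hold the same match, TTGCACAA, and do not count as independent of each other. TTCNNNGAA, a spelling of the STAT site, was in 0 of the 8 and in 7.02% of all promoters. The NF-kappaB consensus was in 0 of the 8 and in 3.9% of all. Both strands were searched, and no match overlapped one of another motif. A match of letters is a description of the window and not a measured site, and no match says only that these letters are not in it.

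The probes decide what each value reads, so the 60-base probes of Lcn2, Saa1 and Saa3 are given in lower case.
Lcn2 probe: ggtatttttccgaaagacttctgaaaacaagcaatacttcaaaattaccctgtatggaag
Saa1 brighter probe: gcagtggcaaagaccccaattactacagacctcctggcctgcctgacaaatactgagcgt
Saa1 dimmer probe: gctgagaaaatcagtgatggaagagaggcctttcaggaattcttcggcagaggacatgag
Saa3 probe: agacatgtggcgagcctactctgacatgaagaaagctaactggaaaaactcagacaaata
On build mm9, per the array annotation and all on the minus strand, these lie at chr2:32241037-32241281, chr7:53996070-53996129, chr7:53996167-53996639 and chr7:53968031-53968090. The Lcn2 probe and the dimmer Saa1 probe cover 245 and 473 bases of genome, so each crosses an intron. The array annotation lists a Saa1 transcript beside the Saa3 transcript for the Saa3 probe. The Saa3 value can therefore hold signal of Saa1. For the probes of Saa1, Saa2, Orm1 and Orm2 the annotation lists no RefSeq transcript of another member, but they were not tested against paralogs. Their values may also hold signal of a paralog, and which copy was measured is uncertain. The Orm1 probe lies at chr4:63006483-63007090 and crosses an intron, and the Orm2 probe lies at chr4:63024979-63025038. The probes of Hp (chr8:112099172-112099231), Hpx (chr7:112740304-112740363), Saa2 (chr7:54009535-54009594) and Serpina3n (chr12:105651918-105651977) are each in 1 block.

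Levels are log2 signals relative to the 75th percentile of the same array, and no level of a probe is set against that of another probe. That percentile ran from 602.8 to 2732.2 intensity units over the 16 arrays, and the scanner software called 59.7% to 77% of probes well above background. Prom1, the check of the sort, ran from 1.13 to 1.82 in the untreated and from 0.81 to 2.23 in the DDC samples of M+133+ cells. In M-133- cells it ran from -8.35 to -7.74 and from -8.63 to -3.52. The mean of 13 bile duct markers was 2.06 to 3.84 in the M+133+ and -4.78 to -2.66 in the M-133- samples, with Sctr low in all samples (-8.95 to -3.2 in M+133+ cells), and hepatocyte markers such as Tdo2 were high in every M-133- sample. Calls rest on an adjusted p under 0.05, with adjustment across the 23306 genes of the fit, and all 10 members and 12 probes passed the filter on dim probes. In mixed cells, fewer cells of a type and less RNA per cell cannot be told apart.

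Lcn2 was low in M-133- cells of untreated liver, and after DDC its range in them overlapped that in M+133+ cells. In untreated liver its level was -2.01, 1.69, -2.56 and -0.73 in the M+133+ samples and -7.62 and -5.32 in the M-133- samples, where 1 of 3 arrays had the probe well above background. After DDC it was 2.47, 1.2, 2.7 and 3.05 in the M+133+ samples and 2.34, 2.38, 2.96 and 3.04 in the M-133- samples. Both DDC groups overlapped each other, the M-133- untreated samples lay below all others, and M+133+ untreated sample 2 reached into the range of the M+133+ DDC samples. The order of the group means was M-133- DDC (2.68 ± 0.37, SD, n = 4), M+133+ DDC (2.36 ± 0.81, SD, n = 4), M+133+ untreated (-0.9 ± 1.89, SD, n = 4) and M-133- untreated (-6.47 ± 1.63, SD, n = 2), and the first pair in this order did not differ beyond its spread.

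Lcn2 rose by 9.15 on the log2 scale with DDC in M-133- cells (SE 1.02, 569-fold, limma adjusted p = 0.000484). The increase was 9.96 between the 2 samples that shared slide 1 and 7.13 on slide 2. Its size rests on a dim baseline: with another background correction (normexp) it was 5.57, and it was 8 without M-133- untreated sample 1 and 10.3 without sample 2, still called each time (adjusted p 0.000126 to 0.0203 over 26 alternatives). The Lcn2 difference with DDC in M+133+ cells was 3.26 (SE 0.834, 9.55-fold, adjusted p = 0.134), which did not pass. Without M+133+ untreated sample 2, the high sample, it was 4.12 (adjusted p = 0.0308, with 0.0308 to 0.348 over the alternatives).

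In untreated liver Lcn2 was the member that was higher in M+133+ cells, by 5.58 (SE 1.02, 47.7-fold, adjusted p = 0.00303). That call was lost with normexp (2.38, adjusted p = 0.121) and without M-133- untreated sample 1 (4.43, adjusted p = 0.0751), in a range of 0.00124 to 0.121 over the alternatives. Within slides the difference was 2.22 on slide 2 and 5.46 on slide 4. After DDC the difference between the sorts was -0.32, with a 95% interval of -2.1 to 1.46 (adjusted p = 0.86). A difference in either direction inside that interval is compatible with these samples, so equal levels were not shown. The test of whether the DDC responses of the sorts differ gave -5.9 for Lcn2 (SE 1.32, unadjusted p = 0.000463, adjusted p = 0.098), which did not pass over all genes. It passed with only the second of the repeat arrays (-6.39, adjusted p = 0.0437) and was smaller with normexp (-2.59), and over the alternatives the adjusted p ran from 0.0437 to 0.333.

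**Figure D1:**
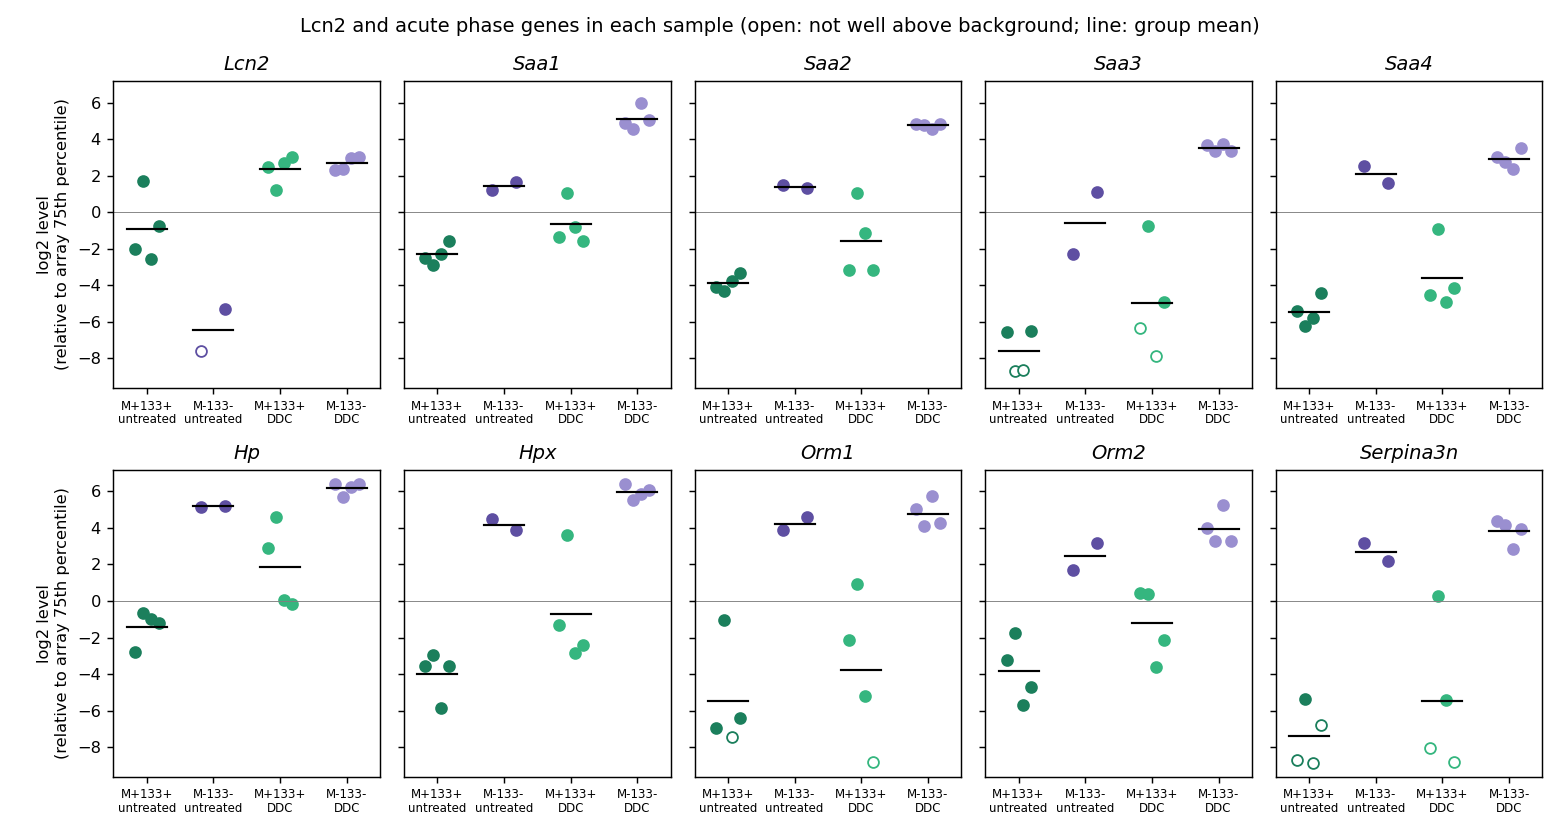
Level of each member (log2, relative to the array's 75th percentile) in each of the 14 samples, by group, with filled points well above background, open points not, and a line at the group mean. Lcn2 is high in both DDC groups (1.2 to 3.05), while the other 9 members are high in both M-133- groups.

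Serum amyloid A proteins are apolipoproteins of high-density lipoprotein, and Saa1 and Saa2 are its main acute phase forms in liver. Saa1 was higher in M-133- cells and rose there with DDC. Its level in the M-133- samples was 1.23 and 1.64 in untreated liver and 4.91, 4.58, 5.98 and 5.06 after DDC. In the M+133+ samples it was -2.49, -2.88, -2.27 and -1.6 in untreated liver and -1.35, 1.06, -0.8 and -1.58 after DDC. By this, the brighter probe, each group stood apart from the others, from the top M-133- DDC, M-133- untreated, M+133+ DDC and M+133+ untreated. The nearest samples of the M+133+ groups were at -1.58 and -1.6. By the dimmer probe these groups overlapped: M+133+ DDC sample 4 (-4.6) lay among the M+133+ untreated samples (-5.38 to -4.52). By that probe M+133+ DDC sample 2 (1.07) also lay above M-133- untreated sample 1 (0.24).

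Saa1 rose by 3.7 with DDC in M-133- cells (SE 0.728, 13-fold, adjusted p = 0.0253), from 1.44 ± 0.29 (SD, n = 2) to 5.14 ± 0.6 (SD, n = 4). It increased by 3.69 on slide 1 and by 4.72 on slide 2. The call was lost under 8 of 27 alternatives (adjusted p 0.00956 to 0.249), among them without M-133- untreated sample 1 (3.49, adjusted p = 0.184), without M-133- untreated sample 2 (3.91, adjusted p = 0.0815) and without M-133- DDC sample 3 (3.42, adjusted p = 0.0549). The dimmer Saa1 probe gave 3.28 (adjusted p = 0.249). With DDC the difference in M+133+ cells was 1.64 (SE 0.595, adjusted p = 0.264).

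Saa2 had the same order of group means. Its level was 1.5 and 1.32 in the M-133- untreated samples and 4.84, 4.79, 4.58 and 4.84 in the M-133- DDC samples. Among M+133+ samples it was -4.11, -4.33, -3.77 and -3.32 in untreated liver and -3.17, 1.06, -1.14 and -3.15 after DDC. Sample 2 was the highest of the M+133+ DDC group, and the 4 groups did not overlap. The difference with DDC in M-133- cells was 3.35 (SE 0.953, adjusted p = 0.125), which did not pass with all samples and passed without M+133+ DDC sample 2 (adjusted p = 0.0332) or with only these groups in the fit (adjusted p = 0.0405), in a range of 0.0332 to 0.391. The same difference in M+133+ cells was 2.28 (SE 0.778, adjusted p = 0.236).

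Saa3, the form made by macrophages and epithelia outside the liver as well as in it, was near background in M+133+ cells. Its level there was -6.58, -8.7, -8.62 and -6.5 in untreated liver (2 of 5 arrays well above background) and -6.34, -0.75, -7.85 and -4.9 after DDC (2 of 4 arrays). In the M-133- samples it was -2.29 and 1.13 in untreated liver and 3.66, 3.35, 3.72 and 3.36 after DDC. The untreated M-133- samples lay between the M+133+ samples and the M-133- DDC samples, apart from M+133+ DDC sample 2, which lay above the lower of them. The difference with DDC in M-133- cells was 4.1 (SE 1.52, adjusted p = 0.248).

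Saa4, the form whose output is held steady in the acute phase, showed a smaller DDC difference in M-133- cells, 0.84 (SE 0.994, adjusted p = 0.811). Its level in these cells was 2.52 and 1.62 in untreated liver and 3.03, 2.73, 2.39 and 3.51 after DDC, and the groups overlapped. For M+133+ cells it was -5.38, -6.25, -5.79 and -4.43 in untreated liver and -4.53, -0.91, -4.91 and -4.12 after DDC. Whether the DDC responses of Saa1 and Saa4 differ was not tested.

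Haptoglobin clears free hemoglobin and hemopexin clears free heme. Both were far higher in M-133- than in M+133+ cells. Hp had a level of 5.17 and 5.22 in the M-133- untreated samples, 6.42, 5.7, 6.23 and 6.39 in the M-133- DDC samples, -2.82, -0.65, -0.96 and -1.19 in the M+133+ untreated samples and 2.92, 4.61, 0.07 and -0.17 in the M+133+ DDC samples. None of the M+133+ DDC samples overlapped the M+133+ untreated samples, and samples 1 and 2 stood above samples 3 and 4. The difference with DDC in M+133+ cells was 3.26 (SE 0.85, unadjusted p = 0.00166, adjusted p = 0.142), and without sample 2 it was 2.34 (adjusted p = 0.126, with 0.0677 to 0.338 over the alternatives). It was 4.57 on slide 3, which held sample 2, and 1.14 on slide 4.

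Hpx had a level of 4.47 and 3.88 in the M-133- untreated samples and 6.39, 5.52, 5.86 and 6.1 in the M-133- DDC samples. In M+133+ cells it was -3.57, -2.98, -5.88 and -3.57 in untreated liver and -1.3, 3.63, -2.85 and -2.39 after DDC. Neither sort's DDC samples overlapped its untreated samples, and M+133+ DDC sample 2 lay just below the M-133- untreated samples. The differences with DDC were 3.27 in M+133+ cells (SE 1.11, adjusted p = 0.233) and 1.8 in M-133- cells (SE 1.35, adjusted p = 0.661), and neither passed.

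The orosomucoids, also called alpha-1-acid glycoproteins, are lipocalins that carry drugs and lipids in plasma. Orm1 had a level of 3.89 and 4.59 in the M-133- untreated samples, 5.03, 4.08, 5.76 and 4.27 in the M-133- DDC samples, -6.94, -1.03, -7.42 and -6.43 in the M+133+ untreated samples and -2.11, 0.92, -5.21 and -8.82 in the M+133+ DDC samples. The sorts did not overlap, untreated and DDC samples overlapped in each sort, and M+133+ untreated sample 2 stood apart from its group. Orm2 had a level of 1.72 and 3.2 in the M-133- untreated samples and 3.99, 3.28, 5.24 and 3.27 in the M-133- DDC samples, and of -3.24, -1.76, -5.71 and -4.72, then 0.42, 0.39, -3.6 and -2.12 in the M+133+ untreated and DDC samples. With DDC the differences in M+133+ cells were 1.65 for Orm1 (SE 1.71, adjusted p = 0.77) and 2.63 for Orm2 (SE 0.998, adjusted p = 0.285), and in M-133- cells 0.55 (SE 2.1, adjusted p = 0.948) and 1.49 (SE 1.22, adjusted p = 0.701).

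Serpina3n is a secreted inhibitor of serine proteases related to human antichymotrypsin. It was at background in most M+133+ samples: the probe was well above background on 1 of 5 arrays of untreated liver and on 2 of 4 after DDC. Its level was 3.16 and 2.2 in the M-133- untreated samples, 4.38, 4.17, 2.83 and 3.92 in the M-133- DDC samples, -8.69, -5.35, -8.85 and -6.77 in the M+133+ untreated samples and -8.05, 0.27, -5.4 and -8.82 in the M+133+ DDC samples. The sorts did not overlap, and with DDC the differences were 1.91 in M+133+ cells (SE 1.52, adjusted p = 0.664) and 1.15 in M-133- cells (SE 1.86, adjusted p = 0.872). Without M+133+ DDC sample 2 the first of these was -0.01.

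The sort comparison asks how cells of the M+133+ gate differ from cells of the M-133- gate. In untreated liver all 10 members were called, 1 higher in M+133+ cells (Lcn2) and 9 lower, against 8.8% of all genes in either direction, 3.63% higher and 5.16% lower. The median of the members was -6.81, against -0.07 over all genes tested. By the brightest probe of each gene the 9 decreases ran from -3.75 for Saa1 (SE 0.728, adjusted p = 0.00458) to -10.09 for Serpina3n (SE 1.86, adjusted p = 0.00312), whose size rests on a probe near background in M+133+ cells and was -6.86 with normexp. The dimmer Saa1 probe gave -6.39 (adjusted p = 0.00444), and Saa3 was -4.02 with normexp (adjusted p = 0.0174). Between -3.75 and -10.09 were Saa2 (-5.3), Orm2 (-6.31), Hp (-6.59), Saa3 (-7.02), Saa4 (-7.54), Hpx (-8.17) and Orm1 (-9.69). Without M-133- untreated sample 2 the count was 6, since Saa1 (-3.54, adjusted p = 0.0522), Saa3 (-5.31, adjusted p = 0.151), Orm1 (-9.34, adjusted p = 0.0793) and Orm2 (-5.57, adjusted p = 0.0664) no longer passed. Without M-133- untreated sample 1 Lcn2, Orm1 and Serpina3n did not pass (adjusted p = 0.0751, 0.0741 and 0.0522). Groups did not overlap for any of the 10 members, against 33.7% of all genes in this comparison of 4 with 2 samples.

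After DDC 9 of 10 members were called, all lower in M+133+ cells, against 12.9% of all genes in either direction and 6.48% lower. The median of the members was -6.45, against 0.31 over all genes. Differences ran from -4.33 for Hp (SE 0.85, 20.1-fold, adjusted p = 0.00307) to -9.33 for Serpina3n (SE 1.52, adjusted p = 0.000803), which was -6.9 with normexp and was measured above background on 2 of 4 M+133+ arrays. Saa3 (-8.48), Orm1 (-8.59), Hpx (-6.7), Saa4 (-6.53), Saa2 (-6.36), Saa1 (-5.8) and Orm2 (-5.17) lay between. These 9 did not overlap between the sorts, against 14.7% of all genes, and the 9 calls also stood without M+133+ DDC sample 2. For Orm2 a fit with slides as fixed terms lost the call (-7.04, adjusted p = 0.0614). No slide held samples of both DDC groups, so no within-slide value exists for this comparison.

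The DDC comparisons ask what the injury changes in each sort. In M+133+ cells 0 of 10 members were called, against 0.24% of all genes, although all 10 differences were above 0. By unadjusted p under 0.05, 7 of 10 passed, against 12.5% of all genes. By the brightest probe 4 members did not overlap and were higher after DDC (Hp, Hpx, Saa1 and Saa2), against 4.07% of all genes. By its dimmer probe Saa1 did overlap. Members had a median of 2.46, against 0.06 over all genes. In M-133- cells 2 of 10 members were called, Lcn2 and Saa1, both higher, against 1.02% of all genes in either direction and 0.614% higher. The median of the members was 1.64, against -0.36 over all genes. By unadjusted p under 0.05, 4 members passed (Lcn2, Saa1, Saa2 and Saa3), against 12.8% of all genes, and 7 did not overlap and were higher after DDC, against 7.11% of all genes. Both DDC comparisons have untreated samples of their own, but each shares samples with a sort comparison, and so these counts are not independent of those above.

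For the difference between the responses of the sorts, 0 of 10 members were called, against 0.257% of all genes, and 2 passed by unadjusted p under 0.05 (Lcn2 and Saa1), against 9.99% of all genes. Saa1 gave -2.06 (SE 0.94, unadjusted p = 0.0452, adjusted p = 0.483). In limma's calls over all genes, 847 were higher and 1203 lower in untreated M+133+ against M-133- cells, and with normexp 529 and 1239. With DDC in M-133- cells 143 were higher and 94 lower, with normexp 111 and 158, and with quantile normalization 163 and 53. Without M-133- untreated sample 1 these counts were 61 and 12, and without sample 2 they were 77 and 165. The median of all genes in that comparison was -0.356, with normexp -0.763 and with quantile normalization 0.072, so the members' differences stand against a base that moves with the scaling. The directions of Lcn2 and Saa1 in it held under each of these scalings.

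**Figure D2:**
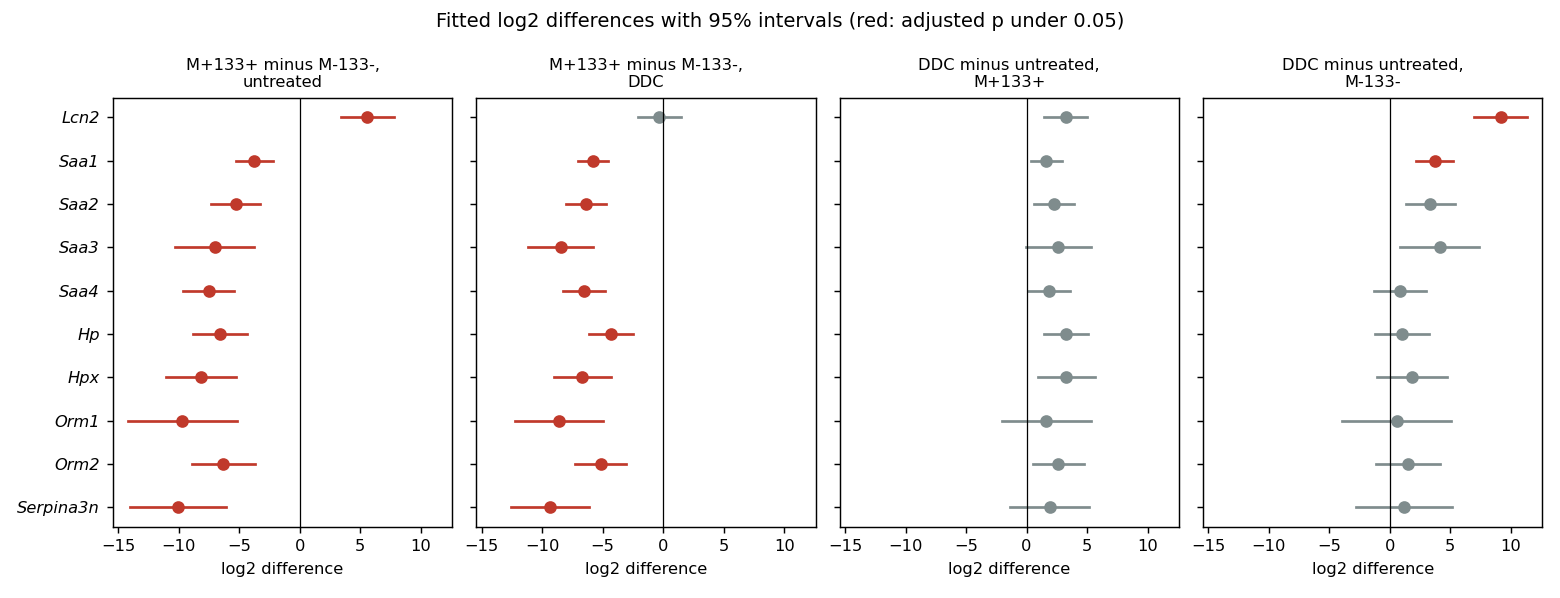
Fitted log2 differences of the 10 members with 95% intervals in the 4 comparisons, in red where the adjusted p over all genes is under 0.05. In both sort comparisons the members other than Lcn2 lie below 0, and with DDC Lcn2 in M-133- cells (9.15) lies farthest from 0.

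Markers of other cell types moved with these results. The mean level of 13 hepatocyte markers was -2.61 to -0.97 in M+133+ and 3.71 to 4.72 in M-133- samples of untreated liver, and -3.37 to 0.22 and 3.62 to 4.01 after DDC. Every member but Lcn2 followed this split. It was not particular to hepatocyte markers. In untreated M+133+ and M-133- samples endothelial markers were at -1.63 to 0.08 and 4.88 to 4.95, and stellate cell and fibroblast markers at -3.69 to -2.13 and 0.09 to 0.68. Erythroid markers were at -5.25 to -4.43 and -0.92 to 0.81. After DDC these lists were again lower in M+133+ cells without overlap. The part of any list in the sort differences was not tested. M+133+ DDC sample 2 had the hepatocyte mean of 0.22, against -3.37 to -1.54 in the other 3 samples of its group. It also had the highest level of its group for Saa1, Saa2, Saa3, Saa4, Hp, Hpx, Orm1 and Serpina3n, and the lowest for Lcn2. Without it the DDC differences in M+133+ cells were 1.82 for Hpx, 0.07 for Orm1, 1.23 for Saa3, 0.94 for Saa4 and 3.64 for Lcn2, none of them called.

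For the DDC comparison in M-133- cells, the hepatocyte mean was no higher after DDC, as given above. The 7 neutrophil markers that passed the filter, of 13 listed, had a mean level of -4.91 to -4.41 in M-133- untreated and -6.55 to -3.52 in M-133- DDC samples. The untreated and DDC ranges overlapped for each of the 7. S100a9 ran from -4.27 to -0.95 in untreated and from -6.58 to -0.09 in DDC samples, Cxcr2 from -3.92 to 0.9 and from -5.59 to -0.9, and Mpo from -3.41 to -3.02 and from -4.86 to -1.43. Ngp ran from -7.85 to -5.51 and from -8.13 to -5.04, and Ltf from -7.81 to -7.05 and from -7.45 to -5.68. Both were well above background in 1 of 2 untreated and 3 of 4 DDC samples. The Kupffer cell and macrophage mean (13 of 13 kept) was -4.85 to -1.1 in untreated and -3.38 to -2.09 in DDC samples. Bile duct markers (13 of 13 kept) had a mean of -4.78 to -4.19 in untreated M-133- samples and of -3.59 to -2.66 after DDC, with no overlap. Among them Spp1 went from -6.29 to -2.79 in untreated to 3.06 to 5.56 in DDC samples and Sox9 from -1.11 to -0.27 to 0.95 to 4.17, while Epcam (-5.8 to -4.9 and -4.81 to -2.32) and Krt19 (-4.9 to -3.56 and -4.82 to -2.39) stayed below 0. The whole list did not share the rise. Ranges overlapped for Krt7 (-3.21 to -2.24 and -3.41 to -2.59), Cftr (-2.92 to -2.29 and -3.92 to -2.22), Pkhd1 (-6.36 to -5.38 and -7.91 to -5.42) and Cldn4 (-4.03 to -2.52 and -5.39 to -3.48). Stellate cell and fibroblast markers (10 of 10 kept) went from 0.09 to 0.68 in untreated M-133- samples to 2.77 to 4.22 after DDC, and endothelial markers (10 of 10) from 4.88 to 4.95 down to 0.74 to 3.52. The part of these shifts in the Lcn2 and Saa1 results was not tested.

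**Figure D3:**
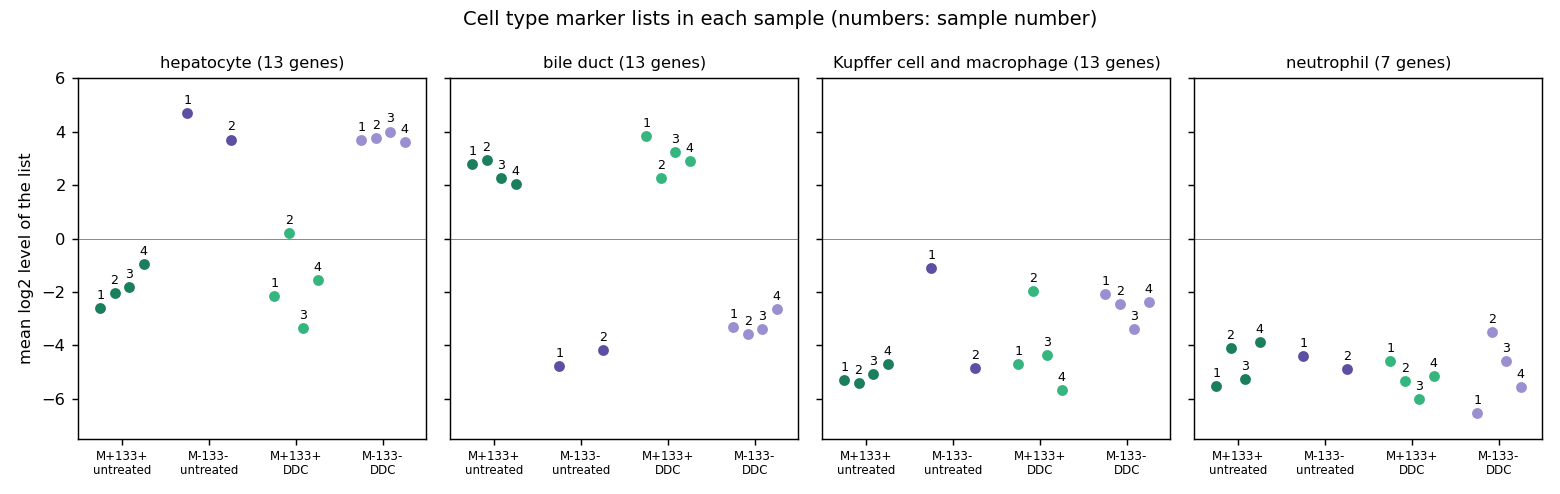
Mean log2 level of 4 cell type marker lists in each sample, numbered within its group. M+133+ DDC sample 2 has the highest hepatocyte mean (0.22) and macrophage mean (-1.96) of its group, and the neutrophil mean lies between -6.55 and -3.52 in all samples.

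The repeat arrays show how far a member can move with no change of sample. In M-133- untreated sample 2 Saa3 was -2.29 on 1 array and 4.55 on the other, and Orm1 was 2.32 and 6.87. The dimmer Saa1 probe was 0.14 and 5.62, while the brighter was 0.57 and 2.72. Lcn2 was -4.47 and -6.18 there, Hpx 3.95 and 3.81. In M+133+ untreated sample 1 Orm2 was -0.99 and -5.49, while Lcn2 was -2.24 and -1.77. Over all genes the median absolute difference was 1.36 in the first of these samples and 0.67 in the second, and 6.92% and 3.28% of genes differed by over 4, against 2 and 1 of the 10 members. The M-133- untreated group holds 2 samples, of which this is 1, so differences against it of the size seen for Saa3 (4.1) lie within what repeat arrays gave.

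**Figure D4:**
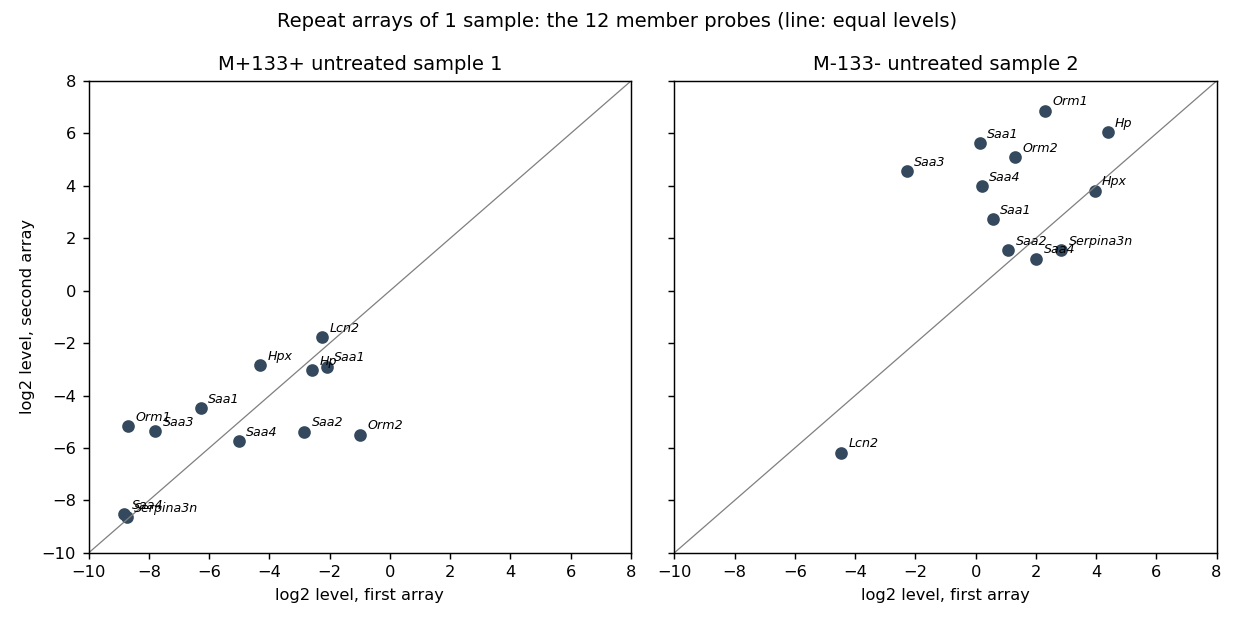
Level of the 12 member probes on the first and second array of the 2 samples that were hybridised more than once, with a line at equal levels. In M-133- untreated sample 2 Saa3 lies farthest from the line (-2.29 and 4.55).

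Genes that drive the acute phase held few calls with DDC, as all genes did. Of 30 tested genes of cytokines, their receptors and transcription factors, limma called 1 with DDC in M-133- cells and 0 in M+133+ cells, against 1.02% and 0.24% of all genes (5 and 4 by unadjusted p under 0.05, against 12.8% and 12.5%). The called gene was Il1rn, the interleukin 1 receptor antagonist, which rose by 4.68 (SE 1.04, adjusted p = 0.0466) from -5.23 ± 3.21 (SD, n = 2, 1 of 3 arrays well above background) to -0.54 ± 0.86 (SD, n = 4). Between the sorts, 2 of the 30 were higher and 5 lower in M+133+ cells of untreated liver, with a median of -0.65, and 3 higher and 4 lower after DDC, with a median of -0.91. The shares of all genes were 3.63% higher and 5.16% lower in untreated liver, and 12.9% in either direction and 6.48% lower after DDC. Il1rn (4.56 and 3.08) and Cd14, the lipopolysaccharide co-receptor (4.17 and 4.43), were higher in M+133+ cells in both. After DDC Tnf was higher (5.24, adjusted p = 0.00292), and Il6 (-8.96, adjusted p = 0.00104, 1 of 4 M+133+ arrays well above background), Cebpd (-4.2, adjusted p = 8.16e-05) and Lifr (-3.37, adjusted p = 0.00762) were lower. In untreated liver Il1a (-6.64), Il6st (-3.81) and Cebpa (-2.33) were lower. The call of Il1rn with DDC was lost under 22 of 26 alternatives and that between the sorts after DDC under 9. Without M-133- untreated sample 2, Il1rn was at 2.41 with DDC (adjusted p = 0.392 by limma) and at 2.28 between the sorts of untreated liver (adjusted p = 0.247). In untreated liver Cd14 (adjusted p = 0.0985 and 0.126), Il1a (0.106 and 0.121) and Cebpa (0.151 and 0.114) were not called by limma without M-133- sample 1 or sample 2, and Il6st was not called without sample 1 (-3.21, adjusted p = 0.103).

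Other acute phase proteins were more often lower than higher in M+133+ cells. Of 28 tested, 2 were higher and 15 lower in M+133+ cells of untreated liver (median -3.61), and 0 higher and 19 lower after DDC (median -3.55). Over all genes 3.63% were higher and 5.16% lower in untreated liver (median -0.07), and 6.48% were lower after DDC (median 0.31). The largest decreases were Hamp2 (-8.82), Serpina1c (-8.82) and Hamp (-8.57) in untreated liver and Serpina3k (-6.94), Serpina3m (-6.71) and Itih3 (-6.63) after DDC. Ceruloplasmin (Cp), the copper-carrying ferroxidase of plasma, was higher in M+133+ cells of untreated liver (2.77, SE 0.412, adjusted p = 0.00071), like Lcn2, and so was Crp (2.64, adjusted p = 0.0171). Cp rose with DDC in M-133- cells by 2.87 (SE 0.412, adjusted p = 0.00341), from 1.86 ± 0.11 (SD, n = 2) to 4.73 ± 0.75 (SD, n = 4), and its responses differed between the sorts (-2.92, SE 0.531, adjusted p = 0.0357). Steap4, a metalloreductase, rose in M-133- cells too (4.13, SE 0.868, adjusted p = 0.0364). With DDC, limma called 1 of the 28 higher and 1 lower in M+133+ cells, against 0.24% of all genes. In M-133- cells it called 2 higher and 0 lower, against 1.02%. By limma's unadjusted p under 0.05, 13 and 7 passed, against 12.5% and 12.8% of all genes. The medians were 0.69 and 0.61, against 0.06 and -0.36 over all genes. The gene called lower in M+133+ cells was Pigr, the carrier of secreted antibody across epithelium, which fell by 2.35 (SE 0.436, adjusted p = 0.0409). Several calls were near the threshold: of 26 alternatives, 11 ended that of Steap4 and 15 that of Pigr, and 13 of 25 ended the interaction call of Cp. In untreated liver Hamp2 was not called by limma without M-133- sample 1 (-7.95, adjusted p = 0.133), nor Crp without sample 2 (1.72, adjusted p = 0.252).

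Negative acute phase proteins, whose output falls in the acute phase, held no called change with DDC in either sort, 0 of 15 in M+133+ and 0 of 15 in M-133- cells by limma, against 0.24% and 1.02% of all genes. Their medians were 0.03 and 0.05, against 0.06 and -0.36 over all genes. By limma's unadjusted p under 0.05, 6 passed in M+133+ and 3 in M-133- cells, against 12.5% and 12.8% of all genes. The list was lower in M+133+ cells, 9 of 15 in untreated liver and 13 of 15 after DDC, with Apoc3 at -7.98 and -7.24. Of all genes 5.16% and 6.48% were lower in these comparisons. Of 15 receptors and partners of the members, limma called 0 with DDC in each sort. By unadjusted p under 0.05, 1 passed in M+133+ and 2 in M-133- cells, against 12.5% and 12.8% of all genes. Hmox1, the heme oxygenase, was lower in M+133+ cells of untreated liver (-2.93, adjusted p = 0.0411), and Cd36 (-4.89, adjusted p = 0.043) and the iron exporter Slc40a1 (-1.5, adjusted p = 0.0217) were lower after DDC. The call of Cd36 was lost under 19 of 26 alternatives, that of Hmox1 under 12 and that of Slc40a1 under 8. Without M-133- untreated sample 2 the difference of Hmox1 was -1.09 (adjusted p = 0.653 by limma), and without M+133+ DDC sample 4 that of Cd36 was -3.11 (adjusted p = 0.0878).

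Across the 14 samples the 9 members other than Lcn2 ran together, with Pearson r of 0.852 to 0.985 over their 36 pairs. Lcn2 had r of -0.0644 to 0.23 with them. These correlations describe samples that share 4 groups and a scaling. The genes outside the members most like Lcn2 over the 14 samples were Hmgn2 (0.934), Ifi27l2a (0.918), Ifi27l2b (0.904) and S100a11 (0.902). Those most like Saa3 were F12 (0.96), Serpinf2 (0.957), Ugt2b37 (0.954) and Cxcl14 (0.953), and those most like Hp were Apoa1 (0.978), Smlr1 (0.963) and Gys2 (0.956). Serpina3n ran closest to an array entry without a current symbol (0.991), Hc (0.988), Gys2 (0.984) and Fgb (0.981). Ifi27l2b had the group order of Lcn2 at its low end, with a mean level of -5.05 in M-133- untreated cells and 2.3, 3.96 and 3.27 in M+133+ untreated, M+133+ DDC and M-133- DDC cells.

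The authors' deposited table gives signed fold changes of M-133- over M+133+ cells and of DDC over untreated, with false discovery rates. For Lcn2 the authors' deposited table holds -37.037 in untreated liver (1.48%), 1.09 after DDC (66.39%), 11.807 for DDC against untreated M+133+ cells (8.57%) and 478.464 for DDC against untreated M-133- cells (2.17%). For the brighter Saa1 probe the authors' deposited table holds 11.945 for DDC against untreated M-133- cells (6.5%), and 9.045 for Saa2 (5.64%). Over all probes the log2 of the fold changes in the authors' deposited table had r of 0.961 to 0.983 with the differences computed here, from the same arrays.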

How the data were processed

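Per the file headers, deposited spot values are intensities from Agilent Feature Extraction 10.5.1.1, with background subtracted and spatial trends removed. The authors' deposited table gives fold changes, signed and linear, and false discovery rates as percent values. The submitters' processing notes name limma, with settings not given in the sources used here. Per the labels, amplified cDNA was labelled with Cy3.

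The deposited intensities were put on a log2 scale minus each array's 75th percentile over spots other than controls. Flagged spots were left out, and repeat spots, then repeat arrays of a sample, were averaged. A probe stayed in (34585 did) where 0.5 or more of any group's samples had it well above background, and the brightest kept probe stood for a gene. Names came from a RefSeq table (GRCm38.p6): 26678 probes matched by accession, 5189 by symbol and 952 by synonym, the 12 member probes kept their member name, and 8343 kept the name in the file. Limma 3.58.1 in R 4.3.3 was fitted across the 14 samples (eBayes with trend, tests two-sided), with Benjamini-Hochberg adjustment over 23306 genes, and SE is its moderated standard error. The code was tested on simulated data.

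Besides members and Prom1, up to 3 called genes per direction of each list and comparison, and the 4 genes most correlated with Lcn2, Saa3, Hp and Serpina3n, are named, except for some that are not reported here. Members and lists were chosen with earlier results of these data known. The alternatives were background correction, scaling, filter, probe choice, variance model, samples in the fit, repeat arrays, slide, replicate and title numbers, leaving out each sample, and, added after seeing the data, the dimmer Saa1 and Saa4 probes. The 5 slides are also the 5 scans. The labels' replicate numbers did not pair the samples. The number that opens a sample's title is shared between the sorts. Title numbers 5, 6, 7 and 8 each occur in both DDC groups, and 1 and 1B each occur in both untreated groups. The labels do not say whether a shared title number marks a shared preparation. The sorts may therefore be paired, while the main fit treats their samples as unpaired.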

Additional observations from a re-analysis of the deposited data

Results flagged for a closer look

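The level of Orm1 in M+133+ untreated sample 2 was -1.03, far from the other 3 samples of its group, which ran from -7.42 to -6.43. Its gap to the nearest sample was 0.846 of the group's range. It was the only value to stand out in this way among 30 groups of 4 samples (10 members in 3 groups), of which chance picks about 1 in 20. The same sample had the highest Lcn2 level of its group (1.69).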

How the results depend on the processing

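Of 1300 member values under alternatives, 1268 kept their direction and their side of the threshold, 17 lost a call, 4 gained one and 11 changed sign. Of 883 values of the genes that the naming rule takes from the other lists, 733 kept their call, 150 lost it and 0 changed sign. Leaving out single samples, the members called ranged from 6 to 10 in the untreated sort comparison, stayed at 9 after DDC, and ranged from 0 to 1 for DDC in M+133+ cells (1 without M+133+ untreated sample 2, Lcn2) and from 1 to 3 for DDC in M-133- cells. For DDC in M-133- cells the count was 1, in place of 2, with the mean of the probes of a gene, with only the second repeat array, with slide as a fixed block and with the replicate block. Leaving out either M-133- untreated sample leaves 1, which the fit takes to vary like the other groups. With the replicate block the other counts were 10, 9, 0 and 0. Deviations of 18 pairs of samples with the same replicate number correlated at -0.153 to 0.076. Of 14 samples, 0 correlated best with a sample of their own replicate number. In 6 pairs with the same title number the deviations correlated at -0.013 to 0.113, against -0.163 to 0.153 in 48 pairs that shared neither number. The interaction count was 1 with only the second repeat array (Lcn2), in place of 0.

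The values that changed sign were those of Lcn2 between the sorts after DDC (0.06 without M+133+ DDC sample 2, and -0.55 to 0.06 over all left-out samples), Orm1 for DDC in M-133- cells (-0.59 with the second repeat array), and Serpina3n for DDC in M+133+ cells (-0.01 without M+133+ DDC sample 2, in a range to 3.02). For the interaction they were Orm1 (-0.38 with the replicate block, -0.47 without M+133+ DDC sample 2, in a range to 2.77), Orm2 (-0.37 with the first repeat array, -0.33 with slide as a random block), Saa3 (0.25 without M-133- untreated sample 1, from -3.17) and Serpina3n (-0.04 with normexp, -0.05 with the replicate block, -1.16 without M+133+ DDC sample 2, in a range to 1.87). None of these was called, and the cause was not tested.

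Counts of all genes called moved by over 1.5 times in places: from 2050 to 818 and 1208 without M-133- untreated sample 1 or 2, from 3011 to 1143 with slide as a fixed block, from 56 to between 6 and 138 for DDC in M+133+ cells, from 237 to as few as 38 in the DDC comparison of M-133- cells when it was fitted alone, and from 60 to between 11 and 105 for the interaction. Signal over background limits Lcn2 in M-133- untreated cells and Saa3, Orm1 and Serpina3n in M+133+ cells.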
